A study of Mus musculus with 4 samples.

Results

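mmu-miR-140, mmu-miR-140*, mmu-miR-143 and mmu-miR-145 are 4 mouse (mmu) microRNAs (miRNAs) known from mesenchymal lineages, and their probes were taken by name from arrays that list 696 miRNAs. Total RNA of mandibular molar tooth germs from embryos of ICR mice, an outbred strain with no treatment and no mutation named, was measured at the embryonic days E11, E12, E14 and E16 with 1 Agilent single-colour miRNA array per stage. The sources used here do not say whether or how embryos were pooled. With 1 array per stage there was no spread between samples, so no difference between stages was tested, and every ± below is the measurement error of the array signal or combines such errors.

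miRNAs are short RNAs that guide Argonaute proteins to messenger RNAs, chiefly through pairing of bases 2 to 8 from their 5′ end, the seed, and lower the output of those messengers. miR-140 and miR-140* are the opposite arms of 1 precursor hairpin encoded in an intron of Wwp2, a ubiquitin ligase gene, and are known for their level in cartilage, where the chondrocyte factor SOX9 drives the locus. miR-143 and miR-145 lie next to each other in the genome, come from a shared transcript and are known from smooth muscle cells and fibroblasts. During these stages a tooth germ holds an epithelium, which forms the enamel organ, and a neural crest-derived mesenchyme, which forms the dental papilla and follicle.

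The precursor of miR-140 and miR-140* is shown because it carries both measured arms. It lies at chr8:107551244-107551313 on the plus strand (RefSeq, assembly GRCm38.p6), inside the Wwp2 gene of that annotation, and the capitals mark the arm now named miR-140-3p, the array's miR-140*, at bases 45 to 65 of 70.
miR-140 precursor: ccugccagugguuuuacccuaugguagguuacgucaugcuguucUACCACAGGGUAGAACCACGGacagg
miR-140*: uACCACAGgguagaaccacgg
In the lower line the capitals mark the seed. Of the other mature miRNAs in the RefSeq table, 1, miR-497b, had the same bases at that position.

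Of the 4 miRNAs, 3 were detected at every stage. mmu-miR-145 was flagged as not detected on each of the 4 arrays, as was its opposite arm, miR-145*. Undetected features are written as 0.1 in the files, so no level or fold can be given for them; the lowest detected signals on the arrays were 5.48, 7.43, 5.69 and 6.51 at E11, E12, E14 and E16. Of all 696 miRNAs, 197 were detected on all 4 arrays and 424 on none.

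miR-143 was detected throughout while miR-145, from the same genomic neighbourhood, was not. In the RefSeq table, 184 pairs of adjacent miRNA genes with probes here lay within 10000 bases of each other. In 30 of these pairs 1 gene had a probe detected on all arrays and its neighbour none on any array, and miR-143 with miR-145 was 1 of the 30. In 72 pairs both genes were detected on at least 1 array, and in 59 neither was. Genes inside larger clusters stand in more than 1 pair, many of the 30 among them, and some probes match several gene copies. The pairs are therefore not separate loci. Probes differ in affinity, so undetected does not show that the miRNA was absent.

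The deposited signal of mmu-miR-143 was 14.5 ± 3.7 at E11, 52.5 ± 7.4 at E12, 65.8 ± 6.9 at E14 and 124.5 ± 10.7 at E16. It was lowest at E11, where it stood 3.92 times above its own error, and higher at each later stage. The deposited signal of mmu-miR-140 was 26.0 ± 5.2 at E11, 51.5 ± 7.4 at E12, 44.0 ± 5.9 at E14 and 116.7 ± 10.2 at E16. Its E12 and E14 signals differed by less than their combined error, and its E16 signal was the highest.

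The deposited signal of the opposite arm, mmu-miR-140*, was 61.3 ± 6.8 at E11, 89.7 ± 9.6 at E12, 82.7 ± 8.1 at E14 and 150.1 ± 13.1 at E16. Its order over the stages was that of miR-140, with a narrower range. All these signals are intensities that are not scaled between arrays, and the arrays themselves became brighter. The 75th percentile over the 197 miRNAs detected on all arrays was 1.44 higher at E16 than at E11 on the log2 scale.

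**Figure D1:**
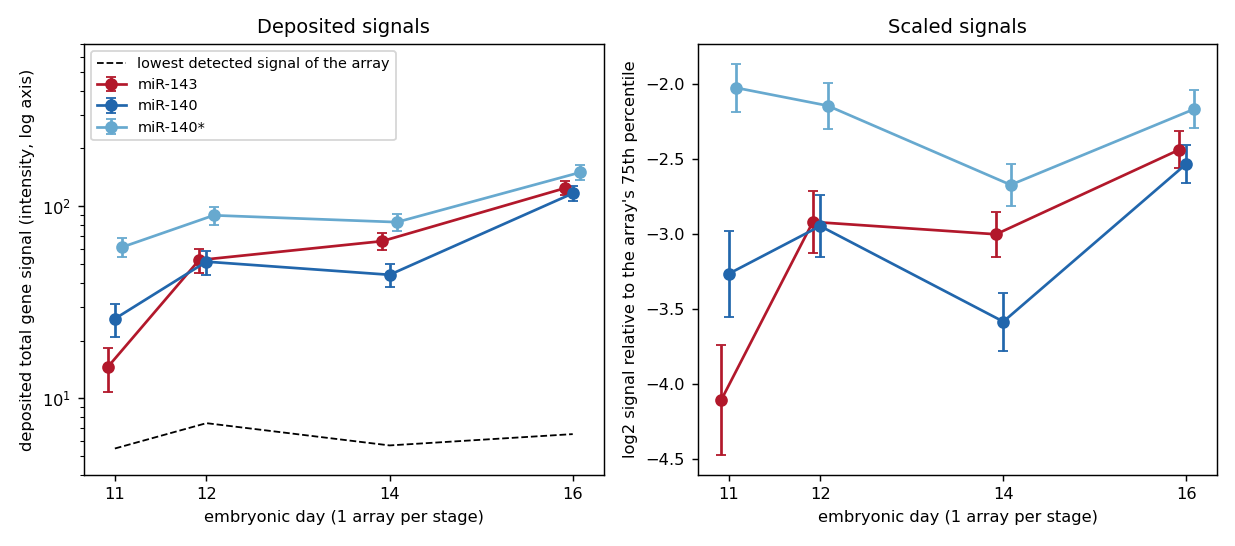
The left panel plots the deposited total gene signal (intensity, log axis) and the right panel the log2 signal relative to the array's 75th percentile, against embryonic day, for miR-143, miR-140 and miR-140*; points are 1 array each, bars are the measurement error, and the dashed line is the lowest detected signal of each array. All 3 deposited signals are highest at E16, while after scaling miR-140* is lower at E14 and near its E11 value at E16; heights of different probes cannot be set against each other.

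Relative to that percentile, miR-143 was at -2.44 ± 0.12 at E16 and -4.11 ± 0.37 at E11 on the log2 scale. The E16 minus E11 difference was 1.67 ± 0.39, or 3.17-fold higher at E16. It was the 1 of the 3 detected miRNAs that was at least 2-fold higher; of the 205 miRNAs that had a signal at E16 and at E11, 13.7% passed that line upward and 37.6% passed 2-fold downward. Of those 205 miRNAs, 12 had a larger upward difference than miR-143.

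miR-140 was at -2.53 ± 0.13 at E16 and -3.27 ± 0.29 at E11, a difference of 0.73 ± 0.31 (1.66-fold higher at E16), under the 2-fold rule. miR-140* was at -2.17 ± 0.13 at E16 and -2.03 ± 0.16 at E11, a difference of -0.14 ± 0.20 that lay within its error of 0. All 3 lay above the median of the 205 miRNAs, -0.74, by 2.41 for miR-143, 1.48 for miR-140 and 0.60 for miR-140*. These are bulk RNA measurements, in which a changed number of cells of a type and a changed amount of RNA per cell cannot be told apart.

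**Figure D2:**
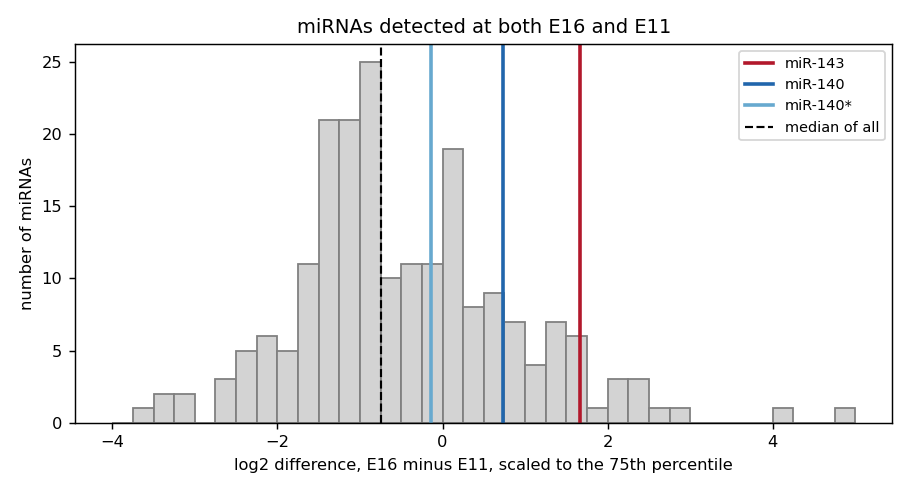
The histogram shows the log2 difference, E16 minus E11, after scaling to the 75th percentile, for the 205 miRNAs measured at E16 and E11 (y axis, number of miRNAs); coloured lines mark miR-143 (1.67), miR-140 (0.73) and miR-140* (-0.14), and the dashed line the median of all (-0.74). All 3 lie to the right of the median, with miR-143 in the upper tail.

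The size of these differences depended on how the arrays were scaled. Over 6 scalings the E16 minus E11 difference was 1.62 to 3.10 for miR-143, 0.70 to 2.17 for miR-140 and -0.18 to 1.29 for miR-140*. miR-143 passed 2-fold under 6 of the 6, miR-140 under 2 and miR-140* under 1. The sign for miR-140* was positive under 4 of the 6. The split of all 205 miRNAs moved too, with 28 higher and 77 lower at E16 in the scaling above, 44 and 35 when arrays were scaled to their median, and 92 and 9 without scaling.

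**Figure D3:**
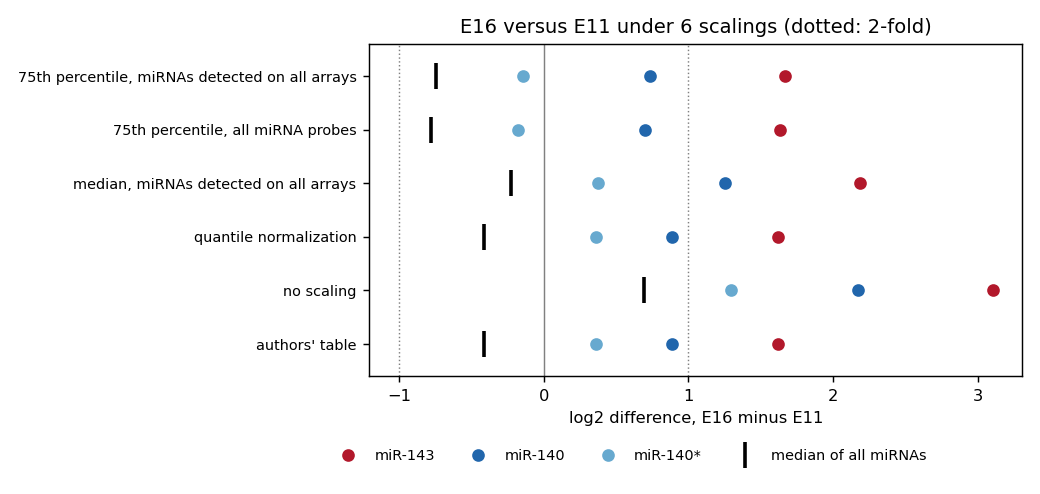
Points are the log2 difference, E16 minus E11, of miR-143, miR-140 and miR-140* under each of 6 scalings (rows), black ticks the median of the 205 miRNAs under the same scaling, and dotted lines 2-fold. miR-143 is right of the 2-fold line in every row, and all 3 points are right of the tick; 4 of the rows differ only by a constant shift, which keeps the gaps between points and tick, and quantile normalization and the authors' table hold the same values.

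Step by step, miR-143 differed most between E12 and E11. Its scaled level was -2.92 ± 0.20 at E12 and -4.11 ± 0.37 at E11, a difference of 1.19 ± 0.42 (2.27-fold higher at E12). Of 201 miRNAs compared at this step, 9.45% passed 2-fold upward and 8.46% downward, and miR-143 was the 1 member called. Under quantile normalization the difference was 0.77, below 2-fold. miR-140 was at 0.32 ± 0.35 and miR-140* at -0.12 ± 0.22, both log2 differences within their error of 0.

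From E12 to E14 no member passed 2-fold, against 12.7% of 212 miRNAs higher and 15.1% lower. The E14 minus E12 log2 difference was -0.64 ± 0.28 for miR-140, -0.53 ± 0.21 for miR-140* and -0.08 ± 0.25 for miR-143. Those of both miR-140 arms exceeded their error in this scaling and were below 0 under the 6 scalings. On the deposited signals they were within their error, at -0.23 and -0.12, as was miR-140 under quantile normalization, also at -0.23. The median of all miRNAs at this step was -0.40.

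From E14 to E16 the member at least 2-fold higher was miR-140. Its scaled level was -2.53 ± 0.13 at E16 and -3.59 ± 0.19 at E14, a difference of 1.05 ± 0.23 (2.07-fold higher at E16), close to the 2-fold line. Quantile normalization gave 0.98, just under it. Of 231 miRNAs compared here, 7.36% passed 2-fold upward and 13.4% downward, and 12 had a larger upward difference. miR-143 (0.56 ± 0.20) and miR-140* (0.50 ± 0.19) were also higher at E16 than at E14 by more than their error, under 2-fold, and the 3 differences were positive under the 6 scalings.

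Across wider spans, the E14 minus E11 difference of miR-143 was 1.10 ± 0.40, with 16.6% of 205 miRNAs past 2-fold upward and 26.8% downward. With the 75th percentile taken over all miRNA probes it was 0.91, under 2-fold. For miR-140 the same difference was -0.32 ± 0.35 and for miR-140* -0.65 ± 0.21, but both turned on the deposited signals, to 0.76 and 0.43. From E12 to E16 no member passed 2-fold, against 6.05% of 215 miRNAs higher and 19.1% lower; the difference was 0.48 ± 0.24 for miR-143, 0.42 ± 0.24 for miR-140 and -0.02 ± 0.20 for miR-140*. On the deposited signals 2 members passed 2-fold for this span, miR-143 at 1.25 and miR-140 at 1.18, and miR-140* was at 0.74. In those unscaled signals 60 of the 215 miRNAs passed that line upward, 11 passed it downward, and the median difference was 0.43.

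Changes of different miRNAs within the same arrays can be set against each other without the choice of a constant scaling, which cancels. From E11 to E16 the change of miR-143 exceeded that of miR-140* by 1.81 ± 0.44 on the log2 scale (3.50-fold), 4.12 times the combined measurement error. It exceeded that of miR-140 by 0.93 ± 0.50, or 1.87 times the error. Quantile normalization, which is not a constant shift, gave 1.26 and 0.73 for these differences of changes.

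Relative to E11 the excess of miR-143 over miR-140* was 1.30 ± 0.48 at E12 and 1.75 ± 0.45 at E14. The excess over miR-140 was 0.87 ± 0.55 at E12 and 1.42 ± 0.53 at E14. Under quantile normalization the excess over miR-140* was 0.73 at E12 and 1.43 at E14, and that over miR-140 was 0.63 and 1.12. From E12 to E16 the changes of miR-143 and miR-140 differed by 0.07 ± 0.34, within the error. All values relative to E11 share that array, where the signal of miR-143 had its largest error, 25.5% of the signal.

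**Figure D4:**
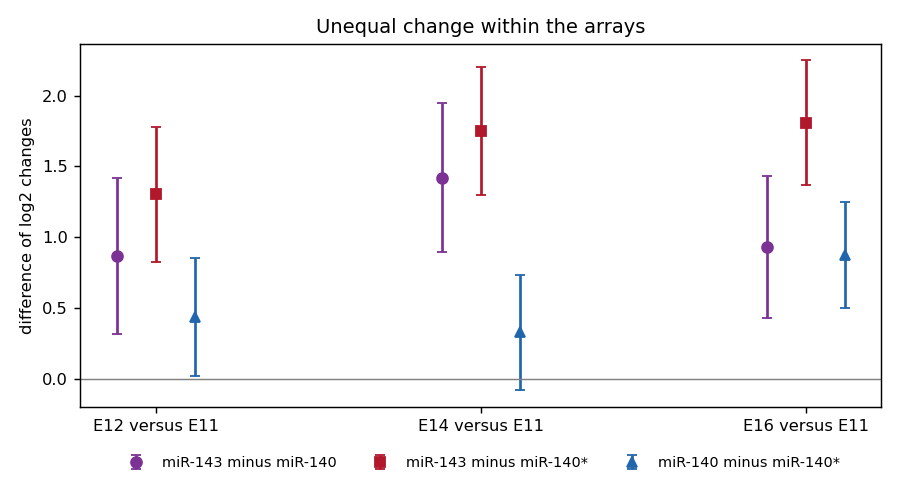
Points are the log2 change of the miRNA named first minus that of the one named after it, at E12, E14 and E16 relative to E11, with combined measurement errors as bars. miR-143 minus miR-140* lies between 1.30 and 1.81 at the 3 stages, and miR-140 minus miR-140* between 0.33 and 0.88; all points use the same E11 array.

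The arms of the miR-140 hairpin leave the same precursor. From E11 to E16 the change of miR-140 exceeded that of miR-140* by 0.88 ± 0.37 (1.84-fold), 2.34 times the error, and by 0.53 under quantile normalization. The same difference of changes was 0.44 ± 0.42 for E12 versus E11, 0.33 ± 0.41 for E14 versus E11 and -0.11 ± 0.35 for E14 versus E12, about or within the error. For E16 versus E14 it was 0.55 ± 0.30, but 0.22 under quantile normalization, within that error. On these arrays 17 precursors had both arms detected at every stage. Their changes from E11 to E16 differed between arms by 0.01 to 2.17 in size, with a median of 0.88, which was the value of miR-140 itself. In 8 of the 17 the arms differed by more.

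Courses most like those of the members were looked for among the 196 other miRNAs detected on all arrays, by the root mean square distance of the 4 scaled log2 values after centring each miRNA on its own mean. The nearest to miR-143 were let-7f (distance 0.05), miR-98 (0.10) and let-7d (0.11). let-7 miRNAs are known to accumulate as embryonic cells differentiate. let-7f had E16 and E11 signals of 3485 and 430.7, and an E16 minus E11 difference of 1.58, beside 1.67 for miR-143. These 3 miRNAs are shown because they share a seed, in capitals.
let-7f: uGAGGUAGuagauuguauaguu
miR-98: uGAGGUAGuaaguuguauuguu
let-7d: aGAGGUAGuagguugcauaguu
The mature let-7f is encoded at chr13:48537889-48537910 (minus strand) and chrX:151912353-151912374 (plus strand), miR-98 at chrX:151913229-151913250 (plus strand) and let-7d at chr13:48536078-48536099 (minus strand), in the same assembly. let-7f differed from miR-98 and from let-7d at 3 of 22 positions. Whether probes for sequences this close bind each other's target was not tested, so the 3 courses are not taken as separate evidence.

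For miR-140 the nearest courses were those of miR-101b (distance 0.03), miR-96 (0.08), a member of the sensory miR-183 cluster, and miR-15a (0.15). The signal of miR-101b was 12.7 at E11, 25.1 at E12, 20.3 at E14 and 56.8 at E16, the same order of stages as miR-140. For miR-140* they were miR-30e* (0.09), miR-16 (0.09) and miR-106b (0.09). The errors of the members' own signals, 0.21 for miR-140, 0.15 for miR-140* and 0.23 for miR-143 as root mean squares, were larger than each of these distances. Within them lay 8, 4 and 11 of the 196 miRNAs, so the order among the nearest is not resolved. The distance between the arms, miR-140 and miR-140*, was 0.31, and that between miR-143 and miR-140 was 0.51.

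Other miRNAs known from the same lineages were read as lists. Of the smooth muscle and fibroblast list, 8 probes were not members, and 2 of these were detected at both E16 and E11. miR-22 was at least 2-fold higher, with signals of 274.6 ± 21.0 at E16 and 17.6 ± 3.9 at E11 and a scaled difference of 2.53 ± 0.34. miR-21, abundant in fibroblasts, was at 0.90 ± 0.16, under 2-fold. The median of these 2 differences was 1.71, beside -0.74 over the 205 miRNAs.

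The other probes of that list were seen late or not at all. miR-29a, known as a repressor of collagen messengers, was detected at E16 with a signal of 59.5 ± 7.3 and at E14 with 13.0 ± 3.8, and not before. miR-221 was detected at the same stages with 75.3 ± 8.0 at E16 and 40.8 ± 5.8 at E14, the related miR-29b with miR-29c only in the E16 array, and miR-222 at no stage. Counting miR-143, this list had 3 of 10 probes detected at E11, 3 at E12, 5 at E14 and 7 at E16, while of all 696 probes 30.0%, 31.8%, 35.8% and 35.9% were detected at these stages.

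The cartilage list had 4 probes beside the miR-140 arms. miR-455, which is known from developing cartilage, was at -0.15 ± 0.22 from E11 to E16, close to the -0.14 ± 0.20 of miR-140*. miR-675-3p, processed from the imprinted H19 transcript, was at -1.26 ± 0.35, at least 2-fold lower at E16, but at 0.18 on the deposited signals. miR-455* was detected at E16 alone, with a signal of 17.0 ± 4.5, and miR-675-5p at no stage. The median of the 2 measured differences was -0.70, near the -0.74 of all 205 miRNAs. On the deposited signals both medians turned, to 0.73 for the list and 0.69 for all. Under quantile normalization they were -0.69 and -0.41.

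The mesenchyme list, with 7 of 7 probes detected on all arrays, had a median E16 minus E11 difference of -0.77. In it 1 miRNA was at least 2-fold higher and 3 lower. These values were near the median of -0.74 and the shares of 13.7% and 37.6% over all 205 miRNAs. On the deposited signals the list median was 0.67, with 3 higher and 1 lower. The 205 miRNAs then had a median of 0.69, with 92 higher and 9 lower. miR-199a-3p (-1.25 ± 0.15) and miR-214 (-2.51 ± 0.15), known from the Dnm3os transcript of skeletal and craniofacial mesenchyme, were among the 3 lower after scaling. The array signal does not tell which gene copy a mature miRNA came from. miR-199b* (-0.40 ± 0.16) and miR-199a-5p (-0.77 ± 0.16) were under 2-fold. On the deposited signals these 4 were at 0.19, -1.08, 1.03 and 0.67. miR-152 was at 2.43 ± 0.43. The E16 minus E11 differences of miR-143, miR-140 and miR-140* were above the median of this list, and miR-143 and miR-214 both passed 2-fold, in opposite directions.

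**Figure D5:**
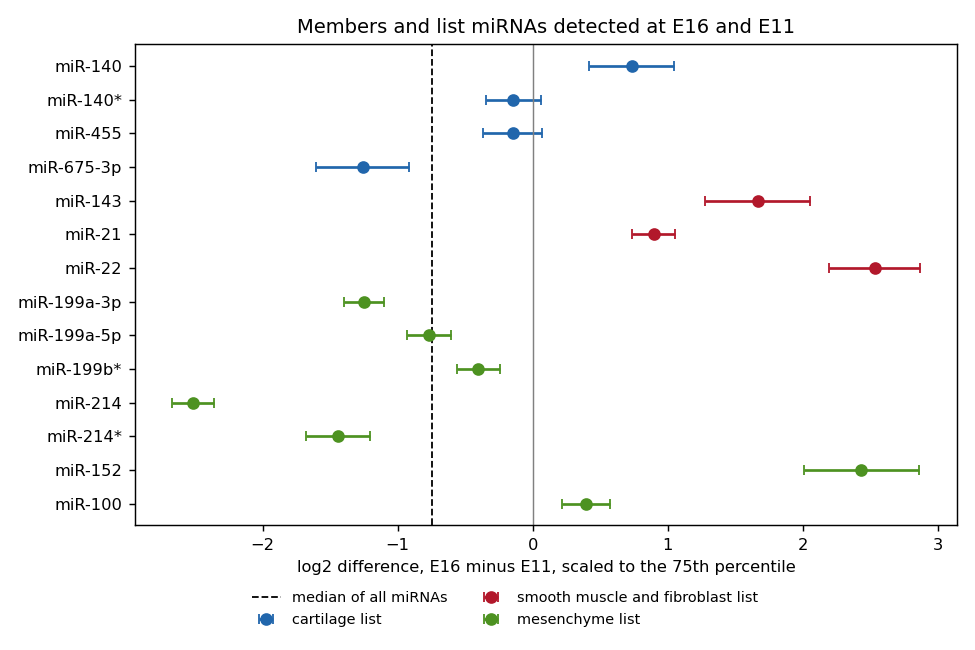
Points are the log2 difference, E16 minus E11, after scaling to the 75th percentile, with combined measurement errors, for miRNAs of the cartilage, smooth muscle and fibroblast, and mesenchyme lists that were detected at both stages; the dashed line is the median of the 205 miRNAs. miR-143, miR-22 and miR-152 lie above 1 and miR-214, miR-214*, miR-675-3p and miR-199a-3p below -1; the signs of miR-140*, miR-455, miR-675-3p, miR-199a-3p, miR-199a-5p and miR-199b* turn on the deposited signals.

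Markers of further cell types were also examined, and their part in the differences was not tested. Sums below are of deposited signals, unscaled on arrays that became brighter, and the differences beside them are scaled. The 8 probes of the striated muscle list (miR-1, miR-133a, miR-206 and others) were not detected on any array. Of the endothelial list 2 of 2 were detected throughout, with deposited signals that summed to 239.8 at E11, 446 at E12, 427 at E14 and 791 at E16, while their scaled differences from E11 to E16 were 0.31 ± 0.15 for miR-126-3p and -0.12 ± 0.45 for miR-126-5p. Of the blood list 1, 2, 2 and 4 of 6 were detected at those stages, with sums of 404, 439, 698 and 1377, and miR-451, the 1 measured at E16 and E11, was at 0.15 ± 0.15. The epithelial list, with 6, 7, 7 and 7 of 7 detected, had sums of 1795, 3382, 5363 and 9364. Its median scaled difference from E11 to E16 was 1.35, with 4 of 6 miRNAs past 2-fold upward. Over all 205 miRNAs that median was -0.74, and 13.7% passed 2-fold upward. The neural list had 2, 3, 2 and 4 of 7 detected, with sums of 93.9, 179.7, 125.5 and 215.7, and its defining miR-9 and miR-124 were not detected. Its median scaled difference from E11 to E16 was -0.45 over 2 miRNAs, miR-128 at 0.02 ± 0.44 and miR-212 at -0.92 ± 0.20. On the deposited signals the neural median was 0.98, beside 0.69 over all 205 miRNAs. Epithelial miR-205 and mesenchymal miR-199a-3p, markers of the layers of the labelled tissue, were detected at every stage.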

How the data were processed

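Each array measured 100 ng of total RNA, dephosphorylated and ligated to pCp-Cy3 per the labels' protocols. Per the file headers, the deposited intensity is the total gene signal, with its error and a detection flag (0 or 1); scanner software and background correction are not named in the labels or headers. The authors' series value table also holds linear intensity and served only as an alternative; quantile normalization of the signals over the 718 features gave its detected values to within 0.1%. Its columns have a median of 0.1, and of 123, 106, 83.7 and 83.0 over detected values, from E11 to E16; no centring or ratio was found.

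The 22 control features were left out. log2 signals of detected miRNAs were taken relative to the 75th percentile of the 197 miRNAs found on every array. A difference is later minus earlier, combines both signal errors, and counts as higher or lower from 2-fold, a rule of size. The number of arrays limits the precision. The other 5 scalings, a 1.5-fold rule, a stricter filter on detection and a correlation of courses were alternatives. Named were the 4 members, their other arms where the arrays had a probe, the 3 courses nearest to each and the 4 list miRNAs with the highest mean level. For miR-143*, the other arm of miR-143, there was no probe. Others of these lists were given by stage of detection, and miR-152 was added after its value was seen. Members and lists were chosen with earlier results of these data known. Of 696 probe names, 638 matched a miRNA gene in RefSeq (GRCm38.p6). The calculation (Python 3.11.15, pandas 2.3.3) was tested on simulated data.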

Additional observations from a re-analysis of the deposited data

How the results depend on the processing

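For the 3 detected members, 90 values under other scalings were set against 18 differences between stages: 45 moved by no more than the measurement error, 45 by more, and no difference called at 2-fold changed sign. From E11 to E16, scaling to the median gave 2.18 for miR-143, 1.25 for miR-140 and 0.37 for miR-140*, and the deposited signals 3.10, 2.17 and 1.29. Quantile normalization and the authors' table both gave 0.36 for miR-140*, and 1.26 for the excess of miR-143 over miR-140*. Members at least 2-fold higher at E16 than at E11 numbered 1, but 2 when scaled to the median, 3 on the deposited signals and 2 under a 1.5-fold rule. Under the same 4 settings 28, 44, 92 and 42 of all 205 miRNAs were higher.

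Counts over all miRNAs moved with the scaling, as a shift between scalings moves every difference. For E16 versus E11 the count higher was 28, but 44 when scaled to the median and 92 unscaled, and the count lower was 77, but 35 and 9. For E12 versus E11 the 19 higher became 46 unscaled and 39 by a 1.5-fold rule, and the 17 lower became 2 and 52, or 26 with the percentile over all probes. For E14 versus E12 the 32 lower became 18 (median), 9 (unscaled) and 78 (1.5-fold). For E16 versus E14 the 17 higher became 28 (all probes), 30 (median), 36 (unscaled), 37 (1.5-fold) and 9 among miRNAs found on every array, and the 31 lower 54 (1.5-fold). For E14 versus E11 the 34 higher became 82 unscaled, and the 55 lower 34 (median), 8 (unscaled) and 91 (1.5-fold). For E16 versus E12 the 13 higher became 38 (median), 60 (unscaled), 32 (1.5-fold) and 8 (every array), and the 41 lower 18 (median), 11 (unscaled) and 86 (1.5-fold). By correlation, 2 of the 3 nearest courses were shared for each member; leaving out the scaling cannot change these distances as all courses shift alike. No paired analysis was possible because each stage has 1 array, and for the same reason no array could be left out. Low signal limits miR-143 at E11, and miR-145 has no value.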
